A study of Homo sapiens with 8 samples.

Results

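The genes described here encode the signalling chains of the T-cell receptor complex, CD3D, CD3E, CD3G and CD247, and the coreceptors CD4, CD8A and CD8B. These 7 genes, of 17687 named on the array, were taken by their symbols in the platform annotation. Each had 1 named probe set, so 7 of 21448 probe sets were followed.

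RNA came from CUTLL1, 1 human T-cell lymphoma line with a t(7;9) rearrangement and aberrant NOTCH1 activation, and was hybridized to 8 Clarion S Human arrays. All cells carried a lentivirus whose backbone holds the MNDU3 and PGK promoters and GFP, and transduced cells were sorted by flow cytometry. The virus also carried the miRNA cluster that runs between miR-17 and miR-92a in the host gene MIR17HG, constitutively expressed, in cluster cells and no cluster in Empty-V cells, and cells of each kind were cultured for 2 days with 1 µM GSI, an inhibitor of γ-secretase, or with DMSO. This gave 4 groups of 2 arrays: cluster GSI, cluster DMSO, Empty-V GSI and Empty-V DMSO, with set 1 and set 2 in each.

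The αβ T-cell receptor binds antigen but has no signalling tail of its own. Signals pass through CD3δ, CD3ε, CD3γ and the CD247 (CD3ζ) chain, whose tails are phosphorylated by LCK and then bind ZAP70. CD4 and CD8 bring LCK to the receptor by binding MHC class II and class I. Thymocytes pass from a stage without coreceptors to one with both, and then to one with either CD4 or CD8. NOTCH1 is cleaved by γ-secretase and drives early thymocytes into the T lineage.

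The introduced cluster encodes the miRNAs below, shown because they are the agent that separates cluster from Empty-V cells. Sequences and positions are those of RefSeq (GRCh38.p14, chromosome 13, plus strand), written 5′ to 3′ with the seed, bases 2 to 8, in capitals. hsa-miR-17-5p and hsa-miR-20a-5p share the seed AAAGUGC, and hsa-miR-19a-3p and hsa-miR-19b-3p share GUGCAAA.
hsa-miR-17-5p: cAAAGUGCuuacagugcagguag
hsa-miR-18a-5p: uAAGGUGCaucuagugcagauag
hsa-miR-19a-3p: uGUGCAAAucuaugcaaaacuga
hsa-miR-20a-5p: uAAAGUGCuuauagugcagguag
hsa-miR-19b-3p: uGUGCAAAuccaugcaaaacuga
hsa-miR-92a-3p: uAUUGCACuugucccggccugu
No probe set is named for the host gene MIR17HG, so these arrays give no named check of the cluster itself.

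The deposited values are log2 signals between 1.97 and 18.49, with array medians from 5.3 to 5.36. The arrays of a group correlated with r of 0.994 to 0.995 across probe sets, which are not independent replicates, and differed by a median of 0.19 to 0.22. None of the 7 genes was below the median of all values (5.32) on any array. Of 10 T-cell markers, 6 were measured and all lay above that median on all 8 arrays. The 5 measured NK-cell markers, of 6 listed, lay below it on all 8 arrays, as did CD14, LYZ and FCGR1A of the 5 measured monocyte markers, while ITGAM had 6.39 to 7.56. CSF1R was below it on 5 arrays. Of the B-cell markers MS4A1 and BLK were below it on all 8 arrays and PAX5 (4.92 to 5.92) on 4. CD79A had 6.06 to 7.31 and CD79B 5.93 to 6.99. Of the erythroid markers HBB, ALAS2 and KLF1 were below it on all 8 arrays and HBA1 (5.25 to 5.98) on 1. No marker of B cells, NK cells, monocytes or erythroid cells passed the threshold in any of the 7 comparisons. At an unadjusted p under 0.05 (limma) these were at least 1 of 35, 2 of 35, 9 of 35 and 4 of 28 tests. In bulk RNA, fewer cells of a type and less RNA per cell cannot be told apart.

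GSI raised 2 of the 7 genes when both vectors were averaged, CD3E by 1.34-fold and CD247 by 1.41-fold, and lowered none. Both calls lay near the threshold and neither passed with the set as a replicate block. Of all probe sets 7.83% passed the same threshold (limma, Benjamini-Hochberg adjusted p under 0.05) in either direction and 4.35% were higher. The median log2 fold change of the 7 genes was 0.13, against 0.0025 over all probe sets. The cluster raised 1 gene, CD8B, both under GSI (1.07% of all probe sets passed, 0.499% higher) and averaged over the treatments (0.821% passed, 0.289% higher). The medians of the 7 genes were 0.24 under GSI and 0.08 on average, against -0.02 and -0.01 over all probe sets. Within 1 vector, GSI changed 0 of 7 genes past the threshold in cluster cells, where 1.57% of probe sets passed, and 0 of 7 in Empty-V cells, where 7.46% did. At an unadjusted p under 0.05 these were 3 and 2 genes.

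**Figure D1:**
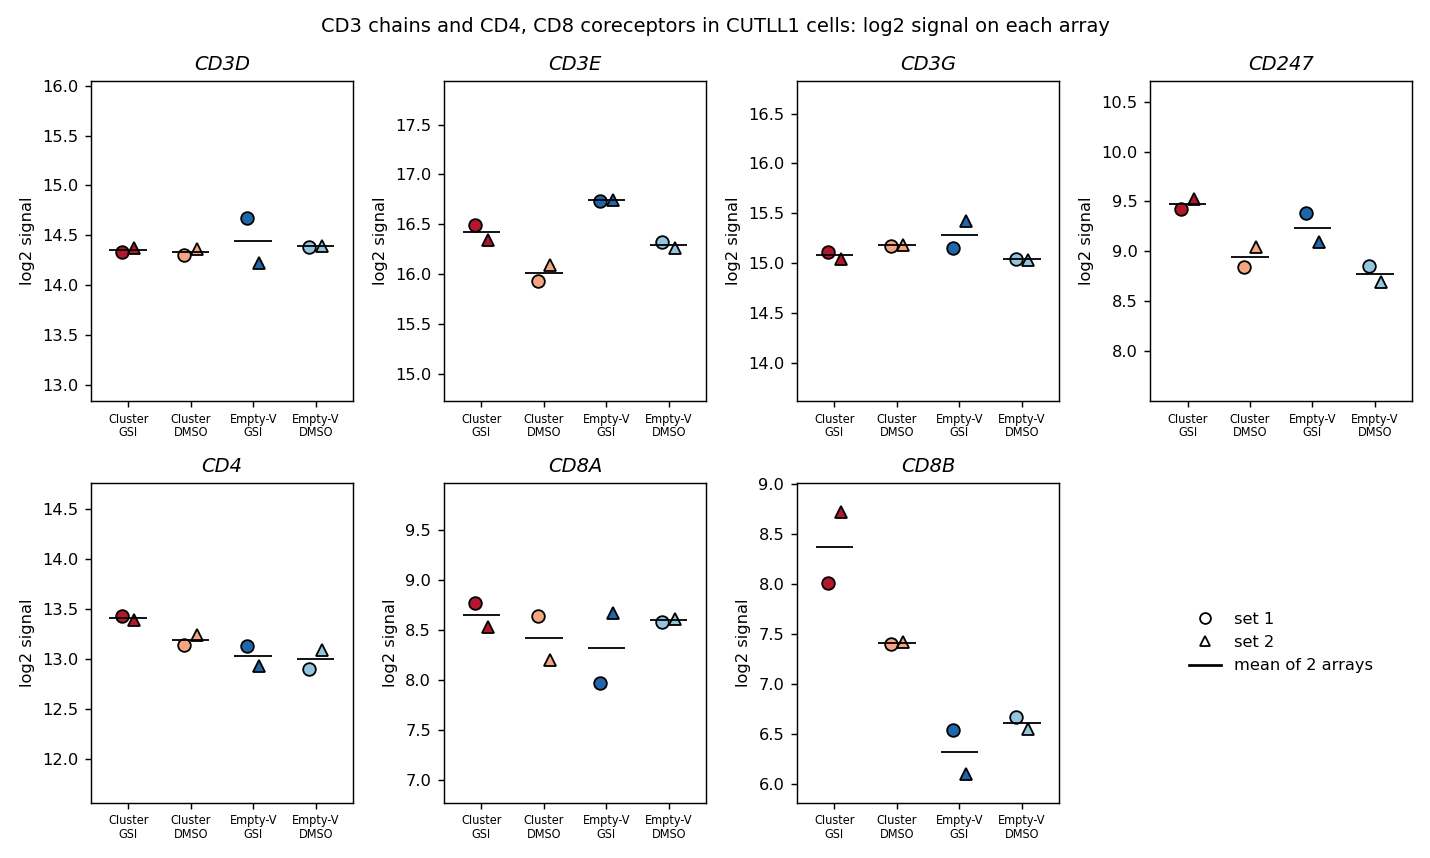
Log2 signal of each of the 7 genes on each array (y axis, 3.2 log2 units in every panel) by group (x axis). Circles are set 1, triangles set 2 and lines the mean of 2 arrays; CD8B has the widest range over the arrays, 2.62, and the arrays of cluster cells are its highest.

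CD3E (probe set TC1100009200.hg.1, chr11:118304730-118316173) encodes CD3ε, which pairs with CD3δ and with CD3γ. In cluster cells its log2 signal was 16.49 and 16.34 under GSI, against 15.93 and 16.09 under DMSO. In Empty-V cells it was 16.73 and 16.74 under GSI, against 16.32 and 16.26 under DMSO. All 4 GSI arrays were above all 4 DMSO arrays, the closest by 16.34 against 16.32. CD3E was thus 0.43 higher under GSI on the log2 scale (SE 0.11, 95% interval 0.17 to 0.68, adjusted p = 0.0498). This call sat at the threshold and was lost with the set as a replicate block (adjusted p = 0.126) and without any 1 of the 8 arrays (0.0873 to 0.152).
The GSI effect was 0.41 in cluster cells (adjusted p = 0.281) and 0.45 in Empty-V cells (adjusted p = 0.132), with a difference of -0.04 and an interval of -0.54 to 0.46. Against Empty-V, CD3E in cluster cells was -0.30 on the average of treatments, which did not pass (adjusted p = 0.245).

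CD3D (TC1100012478.hg.1, chr11:118338954-118342705, minus strand) and CD3G (TC1100009202.hg.1, chr11:118344344-118355161) encode the δ and γ chains and lie beside CD3E. Between the annotated genes lie 22781 bases from CD3E to CD3D and 1639 from CD3D to CD3G. CD3D had 14.33 and 14.37 under GSI, against 14.30 and 14.36 under DMSO, in cluster cells. In Empty-V cells CD3D had 14.67 and 14.22 under GSI, against 14.38 and 14.39 under DMSO. GSI and DMSO arrays overlapped in each vector, and the range over all arrays was 0.45. Under GSI CD3D differed by 0.04 (interval -0.25 to 0.33, adjusted p = 0.898).
CD3G had 15.11 and 15.04 under GSI, against 15.17 and 15.18 under DMSO, in cluster cells. In Empty-V cells it had 15.15 and 15.42 under GSI, against 15.04 and 15.03 under DMSO. The GSI arrays were therefore the lower ones in cluster cells and the higher ones in Empty-V cells, with a range of 0.39 in all. Neither effect passed, at -0.10 (adjusted p = 0.834) and 0.25 (adjusted p = 0.421), and their difference was -0.35 (interval -0.87 to 0.17, adjusted p = 0.558).

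Within an array, CD3D minus CD3E was -2.52 to -1.97 under GSI and -1.94 to -1.63 under DMSO, without overlap. CD3G minus CD3E was -1.58 to -1.30 under GSI and -1.28 to -0.76 under DMSO, again without overlap. The mean differences between GSI and DMSO arrays were -0.39 and -0.35, with CD3E higher relative to both partners under GSI. In an exact two-sided permutation test of 4 arrays against 4, each p was 0.0286, the smallest that 70 assignments allow, and 0.0858 after adjustment over the 12 such tests run, which does not pass. CD3D minus CD3G differed by -0.04 (exact p = 0.914).

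CD247 (TC0100016302.hg.1, chr1:167430640-167518529, minus strand) encodes the ζ chain, which carries most of the phosphorylation motifs of the complex. In cluster cells it had 9.42 and 9.52 under GSI, against 8.84 and 9.04 under DMSO. In Empty-V cells it had 9.38 and 9.09 under GSI, against 8.85 and 8.69 under DMSO. The 4 GSI arrays were above the 4 DMSO arrays. CD247 was 0.50 higher under GSI (SE 0.12, interval 0.22 to 0.78, adjusted p = 0.0404), a 1.41-fold change. As for CD3E, the call was lost with the replicate block (adjusted p = 0.0978) and without any 1 array (0.0513 to 0.136). The effects in cluster cells (0.53) and Empty-V cells (0.47) differed by 0.07 (interval -0.49 to 0.62). Between vectors CD247 differed by 0.20 on average (adjusted p = 0.478).

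RefSeq promoter windows of 300 bases around an annotated start were at hand for CD247, CD3D and CD8A. That of CD247, which rose under GSI, and that of CD3D, which did not pass, are printed to show both beside each other (GRCh38.p14, minus strand, 5′ to 3′). They lie at chr1:167518480-167518779 and chr11:118342656-118342955. Capitals mark TGGGAA, the core letters bound by RBPJ, through which NOTCH1 acts on DNA, TGTGGT, a RUNX core, and CAGNTG, an E-protein box, each searched on both strands.
CD247: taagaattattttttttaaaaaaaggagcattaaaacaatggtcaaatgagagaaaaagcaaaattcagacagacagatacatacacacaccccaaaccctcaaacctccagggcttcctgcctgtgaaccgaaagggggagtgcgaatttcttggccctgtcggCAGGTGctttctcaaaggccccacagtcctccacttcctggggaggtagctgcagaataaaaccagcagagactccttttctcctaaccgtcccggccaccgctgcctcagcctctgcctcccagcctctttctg
CD3D: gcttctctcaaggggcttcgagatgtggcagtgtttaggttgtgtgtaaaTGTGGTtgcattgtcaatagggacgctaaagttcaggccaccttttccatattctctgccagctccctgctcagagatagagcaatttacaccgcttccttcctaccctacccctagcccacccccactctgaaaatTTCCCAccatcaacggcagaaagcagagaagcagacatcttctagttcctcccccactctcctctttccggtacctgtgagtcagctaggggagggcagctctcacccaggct
The CD247 window held 0 matches to TGGGAA, 0 to TGTGGT and 1 to CAGNTG, and the CD3D window 1, 1 and 0, none of these overlapping another. The letters of the GATA core (AGATAA) were searched too and had 0 matches in both windows, and those of the ETS core (GGAAG) had 2 in each, which share bases in CD3D. TGGGAA is present in 24.0% of 35116 promoters of this length, TGTGGT in 13.1%, CAGNTG in 49.9%, AGATAA in 10.3% and GGAAG in 71.9%. These are matches of letters only. CD8A has 4 annotated starts, 2 of which hold TGGGAA and 3 of which hold CAGNTG.

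CD8B (TC0200013324.hg.1, chr2:86815369-86861886) encodes the β chain of the CD8αβ coreceptor and was the gene that changed most. In cluster cells it had 8.01 and 8.72 under GSI, against 7.40 and 7.42 under DMSO. In Empty-V cells it had 6.54 and 6.10 under GSI, against 6.67 and 6.55 under DMSO. All 4 arrays of cluster cells were above all 4 of Empty-V cells. Under GSI CD8B averaged 8.37 ± 0.50 in cluster cells and 6.32 ± 0.31 in Empty-V cells (SD, n = 2 each). It was 2.05 higher on the log2 scale (SE 0.25, interval 1.49 to 2.60), 4.13-fold, with adjusted p = 0.0144, and 0.0345 with the replicate block. The call ended without cluster GSI set 2 (1.69, adjusted p = 0.0757), Empty-V GSI set 1 (2.27, 0.0508) or Empty-V GSI set 2 (1.83, 0.121).
Under DMSO CD8B averaged 7.41 ± 0.01 in cluster cells and 6.61 ± 0.08 in Empty-V cells. This difference of 0.80 (interval 0.25 to 1.35) did not pass (adjusted p = 0.366, unadjusted p = 0.0095). Under DMSO 0 of the 7 genes and 0.0420% of all probe sets passed, and CD8B was the 1 gene with an unadjusted p under 0.05. Averaged over treatments the difference was 1.42 (SE 0.17, adjusted p = 0.0142), 2.68-fold, and adjusted p was 0.0354 with the block. The averaged call was lost without cluster DMSO set 1 (adjusted p = 0.0623) or set 2 (0.0552), Empty-V GSI set 2 (0.0715) or Empty-V DMSO set 2 (0.0547).
The GSI effect on CD8B had opposite signs in the vectors, 0.96 in cluster cells (adjusted p = 0.109, unadjusted p = 0.00348) and -0.29 in Empty-V cells (adjusted p = 0.55). Neither passed. The difference between them, 1.25 (SE 0.35, interval 0.46 to 2.03), had an unadjusted p of 0.00561 and an adjusted p of 0.25. In this test of unequal response 0 of the 7 genes and 0.0280% of all probe sets passed. Whether signal of the near-identical paralog CD8B2, which has no named probe set here, reached the CD8B probes was not tested.

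CD8A (TC0200013323.hg.1, chr2:86784605-86808396, minus strand) encodes the α chain, which CD8B needs to reach the cell surface and which also forms a homodimer. It lies 6973 bases from CD8B. It had 8.77 and 8.53 under GSI, against 8.64 and 8.20 under DMSO, in cluster cells. In Empty-V cells it had 7.97 and 8.67 under GSI, against 8.58 and 8.61 under DMSO. The arrays of all groups overlapped. The GSI effect was 0.23 in cluster cells (adjusted p = 0.73) and -0.28 in Empty-V cells (adjusted p = 0.581). The difference of cluster from Empty-V cells was 0.33 under GSI (interval -0.23 to 0.89, adjusted p = 0.531) and 0.08 on average (adjusted p = 0.878).
CD8B minus CD8A within an array was -1.24 to 0.19 in cluster cells and -2.57 to -1.43 in Empty-V cells, without overlap. The mean difference of 1.35 had an exact two-sided p of 0.0286, the smallest possible, and 0.0858 after adjustment over the 12 tests. As for the CD3 pairs, no outcome could pass after adjustment.

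CD4 (TC1200006645.hg.1, chr12:6789528-6820799) is the coreceptor for MHC class II. In cluster cells it had 13.43 and 13.39 under GSI, against 13.14 and 13.24 under DMSO. In Empty-V cells it had 13.13 and 12.93 under GSI, against 12.90 and 13.09 under DMSO. The 4 arrays of cluster cells were above those of Empty-V cells, the closest by 13.14 against 13.13. The difference was 0.29 on average (interval 0.03 to 0.55) and 0.38 under GSI (interval 0.01 to 0.75), and neither passed (adjusted p = 0.277 and 0.267). GSI effects on CD4 were 0.22 in cluster cells (adjusted p = 0.588) and 0.04 in Empty-V cells (adjusted p = 0.932). CD4 minus CD8B was 4.67 to 5.82 in cluster cells and 6.23 to 6.83 in Empty-V cells (exact p = 0.0286, adjusted 0.0858), again without overlap. This test too could not have passed after adjustment.

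**Figure D2:**
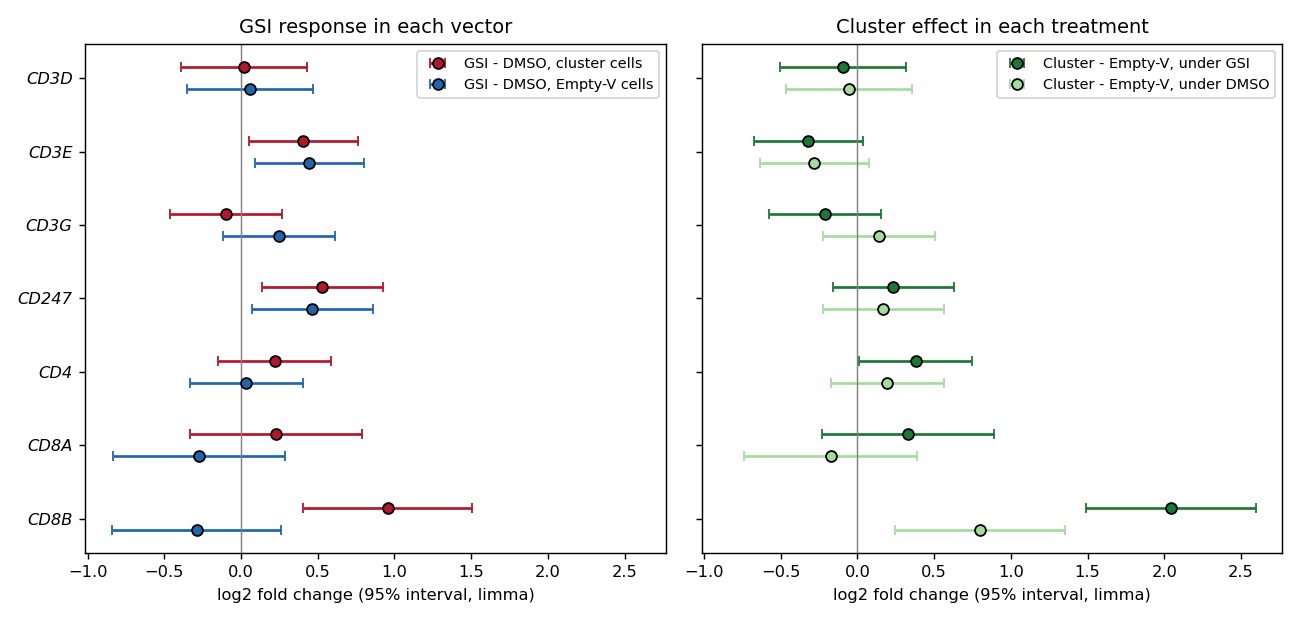
Log2 fold change (x axis) of each gene with its 95% interval from limma; left, GSI minus DMSO in cluster and Empty-V cells, right, cluster minus Empty-V under GSI and under DMSO. CD8B under GSI stands at 2.05, and the intervals of CD3E and CD247 lie above 0 in both vectors.

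**Figure D3:**
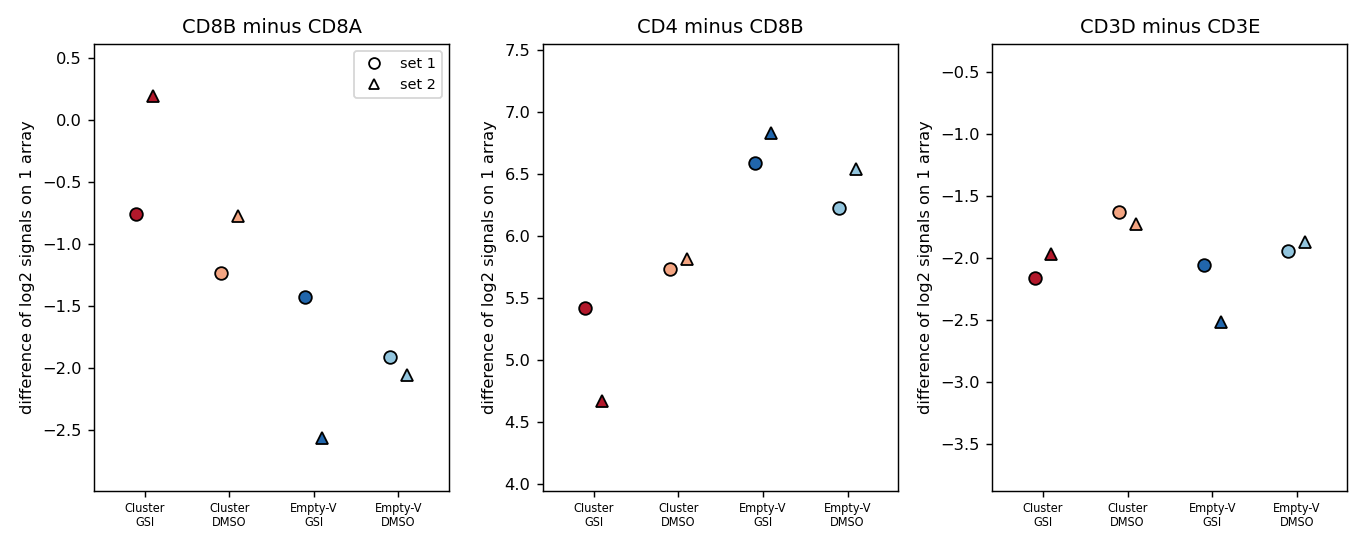
Difference of log2 signals of 2 genes on the same array (y axis, 3.6 log2 units in each panel) by group; circles are set 1 and triangles set 2. CD8B minus CD8A is higher and CD4 minus CD8B lower on all 4 arrays of cluster cells, and CD3D minus CD3E is lower on all 4 GSI arrays.

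Across the 8 arrays the correlations of the genes among themselves ranged widely. They are given as descriptions, since the arrays share vector and treatment. The highest was 0.88 (CD4 with CD8B) and the lowest -0.81 (CD3D with CD8A). CD3E and CD247, both higher under GSI, correlated with r = 0.51, and CD3E and CD3G with 0.39. Over 9032 genes at or above the median signal, the pattern most like that of CD3E by Pearson r was GAK (r = 0.995, n = 8 arrays), that of CD247 was SIT1 (r = 0.978), that of CD4 was METTL3 (r = 0.985) and that of CD8B was MAGED1 (r = 0.982), followed by ALKBH5 and PTTG1IP (r = 0.977 each). SIT1 encodes an adaptor that dampens T-cell receptor signalling. For CD3D, CD3G and CD8A the most alike were SUN2 (r = 0.961), CCNK (r = 0.96) and FLCN (r = 0.947). The ranks depend on the measure: by Spearman rho GAK ranked 52 for CD3E, SIT1 51 for CD247, MAGED1 35 for CD8B, SUN2 40 for CD3D, CCNK 24 for CD3G and FLCN 82 for CD8A, while METTL3 ranked 1 for CD4. For scale, the 99th percentile of Pearson r over these genes was 0.931 for CD3E, 0.887 for CD247 and 0.848 for CD8B.

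Other genes of the T-cell receptor pathway were read for the same comparisons. Of 34 listed proximal signalling genes 31 were measured, and 19 rose and 0 fell under GSI on the average of vectors, where 7.83% of all probe sets passed and 4.35% were higher. The median was 0.75, against 0.0025 over all probe sets. Within a vector 12 rose in cluster cells, where 1.57% of all probe sets passed, and 19 in Empty-V cells, where 7.46% passed. The difference in GSI response between the vectors passed in limma for 0 of the 31 (at least 8 had an unadjusted p under 0.05). RASGRP1, an activator of RAS, rose by 2.57 (SE 0.13, adjusted p = 4.6e-06), PTPRC (CD45), which activates LCK, by 2.51, CD2, an adhesion receptor, by 2.23, and TESPA1, a thymocyte signalling adaptor, by 1.38. LCK and FYN, which phosphorylate the CD3 tails, did not pass, at 0.31 (adjusted p = 0.138) and -0.16 (adjusted p = 0.46), nor did ZAP70, which binds them, at -0.36 (adjusted p = 0.111). LCK and ZAP70 did pass in the robust fit with an intensity trend (0.0164 and 0.0173). PTCRA, the pre-T-cell receptor α chain and the only one of 7 listed receptor chains measured, fell by 1.88 (SE 0.17, adjusted p = 0.000166), and it fell in both vectors.
Of 20 listed regulators of coreceptor expression 19 were measured, and 9 rose and 0 fell under GSI on average, with a median of 0.28, beside the same 4.35% higher and 0.0025 over all probe sets. Within a vector 3 rose in cluster cells, where 1.57% of all probe sets passed, and 8 in Empty-V cells, where 7.46% passed. The difference in response passed in limma for 0 of the 19 (at least 6 had an unadjusted p under 0.05). ID3, an inhibitor of E proteins, rose by 2.26, TOX, which the CD4 lineage needs in mice, by 1.64, GATA3 by 1.41 and RUNX1, a repressor of CD4 in mouse thymocytes, by 0.83. In cluster cells alone RUNX1 was at 0.54 and did not pass (adjusted p = 0.157). ZBTB7B, the CD4-lineage factor, lay below the median signal on all 8 arrays. Of 20 stage markers 19 were measured, 12 rose and 1 fell on average, beside 7.83% of all probe sets passing and 4.35% higher, with a median of 0.86 against 0.0025. In cluster cells, where 1.57% of all probe sets passed, 8 rose and 1 fell. In Empty-V cells, where 7.46% passed, 12 rose and 1 fell. CCR9, a thymic homing receptor, rose by 4.56, CCR7 by 2.35, RAG1 by 2.15 and CD38 by 1.54, while IL7R, the receptor for IL-7, fell by 0.91.
Cluster cells under GSI were lower than Empty-V cells for several of these, unlike CD8B. In that comparison 1.07% of all probe sets passed in either direction and 0.499% were higher. CD2 was lower by 1.14 and TESPA1 by 0.90 among 31 signalling genes, and ID3 by 1.17 among 19 regulators. These calls were lost with the replicate block (adjusted p = 0.0989, 0.114 and 0.0834). Of 19 stage markers 4 were lower, DNTT (terminal transferase) at -2.03, CD69 at -1.57, CCR9 at -1.56 and CD27 at -1.48, and 1, RAG1, was higher at 1.17. With the block DNTT (adjusted p = 0.0163), CD69 (0.0445) and CD27 (0.0493) passed, and CCR9 (0.0768) and RAG1 (0.0772) did not. Leaving out 1 array at a time, DNTT passed in 6 of 8 fits and CD69, CCR9, CD27 and RAG1 in 4 of 8 each. These comparisons share the GSI arrays with the CD8B comparison above. Averaged over treatments, where 0.821% of all probe sets passed and 0.289% were higher, 0 of 31 signalling genes passed. Of 19 regulators 1 was higher in cluster cells and 1 lower, and of 19 stage markers 1 was higher and 3 lower. Under DMSO, where 0.0420% passed, 1 stage marker was lower and 0 signalling genes or regulators passed. DNTT then averaged 9.79 in cluster cells and 11.24 in Empty-V cells (adjusted p = 0.209 with the block).

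**Figure D4:**
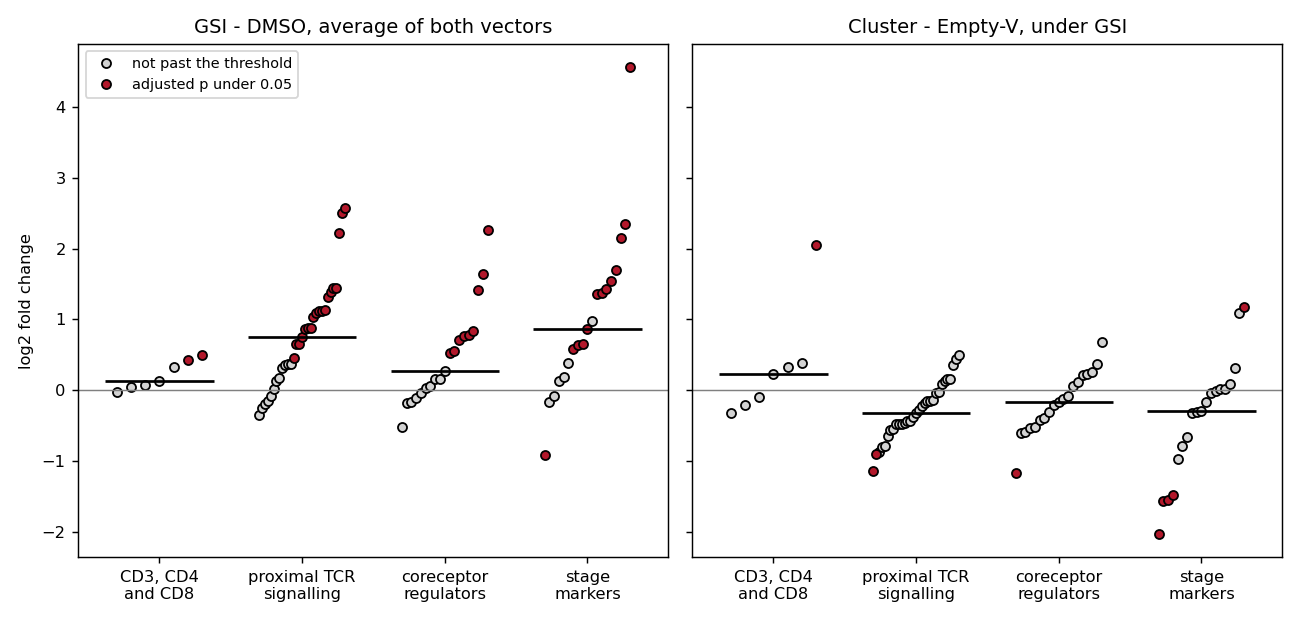
Log2 fold change (y axis) of the 7 genes and of 3 gene lists (x axis), for GSI minus DMSO averaged over vectors (left) and cluster minus Empty-V under GSI (right). Each point is 1 gene, red points have an adjusted p under 0.05 and lines are medians; CD8B, at 2.05, is the only red point among the 7 genes on the right.

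Neighbouring genes were read at each locus, taking those whose lower coordinate lay within 200 kb of a member's lower coordinate, whatever the strand. None of 10 genes around the CD3 locus and none of 3 around CD8A and CD8B passed in any comparison (limma). At an unadjusted p under 0.05 these were 4 of 70 and at least 4 of 21 tests. At most 7.83% of all probe sets passed in any comparison, so 0 of so few genes says little about these loci. Of the 10, 6 had a mean below the median signal over the arrays, as had 7 of the 21 around CD4. Beside CD247, RCSD1 was higher under GSI by 0.63 (adjusted p = 0.0302) and CREG1 was at -0.46 (adjusted p = 0.0507). Around CD4, 4 of 21 genes were lower under GSI on the average of vectors. In that comparison 7.83% of all probe sets passed in either direction and 4.35% were higher. The 4 genes were TPI1 at -0.97, PTMS at -0.91, CDCA3 at -0.67 and ENO2 at -0.52. In cluster cells, where 1.57% of all probe sets passed, none of the 21 passed (at least 5 had an unadjusted p under 0.05 in limma). There TPI1 was at -0.48, PTMS at -0.88, CDCA3 at -0.08 and ENO2 at 0.10. In Empty-V cells, where 7.46% of all probe sets passed, 4 of the 21 were lower. They were TPI1 at -1.47, CDCA3 at -1.25, ENO2 at -1.14 and EMG1 at -0.855 (adjusted p = 0.0226). PTMS was at -0.94 there and did not pass (adjusted p = 0.114), and EMG1 did not pass on the average of vectors (adjusted p = 0.0541). On the average of vectors with the replicate block TPI1 passed (adjusted p = 0.0072), and RCSD1 (0.0665), PTMS (0.066), CDCA3 (0.0623) and ENO2 (0.0803) did not. CD4 itself differed by 0.13 in that comparison (interval -0.13 to 0.39).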

How the data were processed

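RNA of 8 CUTLL1 samples was hybridized to Clarion S Human arrays. The authors used Transcriptome Analysis Console to summarize probes to gene level (SST-RMA) and deposited log2 values, on hg38 per the labels and the supplement, while the main text names hg19. SST-RMA adjusts background and brings arrays to a common distribution, so absolute changes in RNA are not kept. Values were used as deposited, for 21448 probe sets, 17709 with 1 gene name and 3739 with none. Groups follow the labels, and 2 arrays per group limit the precision.

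Group means of all 8 arrays were fitted with limma 3.58.1 in R 4.3.3 (4 residual and 5.29 prior degrees of freedom), and p-values were adjusted by Benjamini-Hochberg over all 21448 probe sets, with a threshold of 0.05. This model was also run on simulated data with changes larger than those of CD3E and CD247 under GSI. That run therefore does not bear on calls of their size. Pairs of genes were compared by exact permutation, where no outcome could pass the threshold after adjustment over all such tests. Python 3.11.15 and matplotlib 3.10.9 drew figures.

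The members and lists were chosen with earlier results of these data known. Named genes are the 7 members, up to 4 called genes per list for GSI and up to 3 for the cluster under GSI by smallest p, neighbouring genes, and those most alike in pattern. Of 104 listed genes 89 were measured. LCK, FYN, ZAP70, IL7R, ZBTB7B and, for the cluster, RAG1 and CCR9 fall outside that rule and were named after their values were seen.

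Alternatives were the set as a replicate block, a threshold of 0.1, no probe sets below the median signal, quantile normalization, a robust fit with an intensity trend, the spread of the compared arrays alone, and leaving out each array. Crossed set numbers were added after the data were seen. The supplement names 2 independent biological experiments but does not say which set belongs to which, so using the set number as a block assumes that a set is 1 experiment. Deviations from group means of same-numbered arrays correlated at -0.24 to -0.192 in all 6 pairs of groups.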

Additional observations from a re-analysis of the deposited data

Results flagged for a closer look

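CD8B was higher under GSI on both arrays of cluster cells and lower on both arrays of Empty-V cells. The difference of the 2 effects was 1.25 on the log2 scale, and limma's test of it did not pass (adjusted p = 0.25).

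CD3G was lower under GSI on both arrays of cluster cells and higher on both of Empty-V cells. Equally, cluster cells were below Empty-V cells under GSI and above them under DMSO. Both are the same difference of -0.35, which did not pass (adjusted p = 0.558).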

How the results depend on the processing

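Under the alternatives, 662 values of the 7 genes kept their call, 26 lost it, 5 gained it and 0 reversed. A value without a call in the main fit that stayed without one counts as kept, and most of the 662 were of this kind. The calls of the main fit were CD3E and CD247 for GSI on average, and CD8B for the cluster under GSI and on average. All 26 losses fell on these calls. With the replicate block the number of the 7 genes past the threshold under GSI on the average of vectors was 0 instead of 2, and the block changed no other call among them. The block reduced all probe sets called to 1006, against 1680 without it, for GSI on average and to 33, against 230, for the cluster under GSI. Leaving out 1 array left 1 array in its group. Fewer probe sets then passed over the whole array for GSI on average, the cluster under GSI and the cluster on average. The lost calls of the 7 genes are thus part of a general loss. In these fits CD3E was 0.385 to 0.465 and CD247 0.425 to 0.57 higher under GSI on average. CD8B was 1.69 to 2.4 higher for the cluster under GSI and 1.245 to 1.6 higher on average. The intensity trend with a robust fit gave 1 gene (CD3E) for GSI in cluster cells, 1 (CD3E) for GSI in Empty-V cells, 2 (CD3E, CD8B) for the cluster on average and 2 for the cluster under GSI, and 2673 and 1232 probe sets for GSI on average and the cluster under GSI. Without probe sets below the median signal, CD3E also passed in Empty-V cells (1 gene, adjusted p = 0.0463). With crossed set numbers 0 of the 7 genes passed for the cluster under GSI, where CD8B had an adjusted p of 0.129. Over the whole array only 1 probe set passed in that fit, against 230 in the main fit. The loss of the CD8B call there is thus also part of a general loss. Quantile normalization, the threshold of 0.1 and the compared arrays alone changed no call of the 7 genes. The causes were not tested. Of the 6 list genes chosen by smallest p for the cluster under GSI, 3 kept their call with the block and 0 without every array in turn, while all 13 chosen that way for GSI on average kept it under both.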
